A study of Homo sapiens and Mus musculus with 7 samples.

Results

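BTB and SCAN zinc finger genes were described in HEL, a line of human erythroleukaemia cells that makes haemoglobin when given hemin. The genes were the entries of the expression table whose symbol begins with ZBTB, ZSCAN or ZKSCAN followed by a number. They came to 55 of 14946 gene symbols, listed as 72 of 24538 transcripts. BTB genes (ZBTB) numbered 37 and SCAN genes 18, of which 13 were ZSCAN and 5 ZKSCAN. The rule went by symbol alone, and 2 of its genes do not encode zinc finger proteins. ZBTB8OS encodes archease, a cofactor of the tRNA ligase, and ZSCAN12P1 is annotated as a pseudogene.

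Both families bind DNA through zinc fingers of the C2H2 type and differ in the domain at the other end of the protein. The BTB domain, also called POZ, forms dimers and recruits corepressors such as NCOR1 and BCOR, and in other BTB proteins the ubiquitin ligase CUL3. The SCAN domain also forms dimers, with itself or with other SCAN proteins. ZKSCAN proteins carry a KRAB domain beside the SCAN domain, and KRAB is the domain that binds the corepressor KAP1, the product of TRIM28. In blood, ZBTB7A is known as a repressor of fetal globin genes and ZBTB16 as a partner of the retinoic acid receptor in a leukaemic fusion protein.

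RNA-seq was done on 4 libraries, 1 for each combination of KAP1 knockdown or no knockdown with or without hemin. The groups were KAP1 knockdown with hemin, KAP1 knockdown without hemin, control with hemin and control without hemin. Hemin was given at 50 µM for 5 days, and each library was made from 250 ng of total RNA. The sources used here do not say how KAP1 was knocked down, and all 4 groups come from 1 cell line. The control columns are headed Ctrl and were matched to the samples with the genotype KAP1 WT, the only other genotype among the HEL samples, so every knockdown ratio rests on that match. The chromatin samples of the series, from mouse bone marrow, are not used here.

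No group had a replicate. A difference between libraries therefore has no replicate check, and the intervals below (95%, exact conditional binomial on reads) cover counting error only, not the variation of cultures. With 1 transcript kept per gene, reads numbered 41201705 in the knockdown library with hemin, 23524250 in the knockdown library without hemin, 37130722 in the control library with hemin and 33514157 in the control library without hemin. Levels are given as scaled TPM, reads per unit of length, scaled for depth and composition so that the libraries sum to 1000000 on average. Ratios are log2 differences after adding a pseudocount of 0.5, and a gene entered a comparison when the higher library reached 5 scaled TPM, called the floor below. In bulk RNA, fewer cells of a type and less RNA per cell cannot be told apart.

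TRIM28 was at 190 scaled TPM in knockdown against 400 in control cells with hemin, and at 317 in knockdown against 421 in control cells without hemin. It was lower in both knockdown libraries, with log2 ratios of -1.07 with hemin and -0.41 without. This gene is 1 of 5 rows that were deposited as whole numbers, so reads were not recovered for it and it has no interval. How those rows were made is not stated, so its values may not be on the scale of the other genes and its ratios are not a firm check of the knockdown. Of 9 erythroid and megakaryocytic markers of HEL cells all 9 were in the table and above the floor. Their summed level lay between 15883 and 60929 scaled TPM across the 4 libraries. The 4 fibroblast markers had no row in the data analysed here, nor had 2 of 3 T cell, 2 of 3 B cell and 1 of 4 epithelial markers. Those with a row summed to 59.1 to 128 scaled TPM for T cells, 3.33 to 28.0 for B cells and 29.2 to 90.4 for epithelium.

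Promoter sequences of 4 genes that differed at least 2-fold below are shown: ZBTB26 and ZBTB44 among the BTB genes lower in knockdown cells, ZBTB7A as the BTB gene higher there, and ZKSCAN1 as the SCAN gene lower there. For ZBTB6, the BTB gene with the largest ratio, no sequence was used here. Each line gives the 250 bases before the annotated start, 5′ to 3′ on the gene's strand, from RefSeq on GRCh38.p14. Capitals mark matches on either strand to 3 motifs, the ETS word CCGGAAG, the GC box GGGCGG and the CCAAT box CCAAT. The windows are chr9:122931513-122931762 on the minus strand for ZBTB26, chr11:130314918-130315167 on the minus strand for ZBTB44, chr19:4066900-4067149 on the minus strand for ZBTB7A and chr7:100015346-100015595 on the plus strand for ZKSCAN1. The ETS word is the core bound by ETS factors, among them GABPA and the blood factor FLI1.
ZBTB26: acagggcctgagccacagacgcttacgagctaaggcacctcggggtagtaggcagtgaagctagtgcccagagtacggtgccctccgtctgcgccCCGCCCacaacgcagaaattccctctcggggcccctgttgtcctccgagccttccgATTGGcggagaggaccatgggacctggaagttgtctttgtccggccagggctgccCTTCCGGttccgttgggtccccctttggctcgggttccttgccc
ZBTB44: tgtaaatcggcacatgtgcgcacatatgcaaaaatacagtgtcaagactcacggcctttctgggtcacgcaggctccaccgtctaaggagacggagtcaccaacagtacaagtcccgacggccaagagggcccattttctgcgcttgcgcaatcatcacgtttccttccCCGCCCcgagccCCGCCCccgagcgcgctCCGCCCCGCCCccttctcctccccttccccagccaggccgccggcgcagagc
ZBTB7A: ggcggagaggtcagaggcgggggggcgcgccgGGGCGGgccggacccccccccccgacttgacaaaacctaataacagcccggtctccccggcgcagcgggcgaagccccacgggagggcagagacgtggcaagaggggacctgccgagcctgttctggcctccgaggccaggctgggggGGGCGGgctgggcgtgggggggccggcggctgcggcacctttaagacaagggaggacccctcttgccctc
ZKSCAN1: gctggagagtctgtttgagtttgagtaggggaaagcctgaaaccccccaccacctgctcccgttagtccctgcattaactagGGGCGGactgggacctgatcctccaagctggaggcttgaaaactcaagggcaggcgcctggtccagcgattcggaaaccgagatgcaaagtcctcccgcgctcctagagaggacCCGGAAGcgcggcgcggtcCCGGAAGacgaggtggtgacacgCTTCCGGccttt

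The ZKSCAN1 window held 3 ETS words and 1 GC box, and the ZBTB26 window held 1 ETS word, 1 CCAAT box and 1 GC box. The windows of ZBTB44 and ZBTB7A held GC boxes and no ETS word. A promoter was given for 46 of the 55 genes, 31 BTB and 15 SCAN, and these were searched for 7 motifs. The ETS word was in 25.8% of BTB promoters (8 of 31) and 40% of SCAN promoters (6 of 15), beside 8.82% of all 27305 promoters of the same length. The GC box was in 71.0% of BTB and 73.3% of SCAN promoters, beside 42.3% of all. The E-box CACGTG was in 22.6% of BTB and 6.67% of SCAN promoters, beside 6.49% of all.

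The CCAAT box was in 38.7% of BTB and 20% of SCAN promoters (33.0% of all). GATA sites, AGATAA, were in 6.45% of BTB and 13.3% of SCAN promoters (9.37% of all), and the Kaiso word TCCTGCNA, bound by the product of ZBTB33, was in 6.45% of BTB and none of the SCAN promoters (3.68% of all). The cAMP response element TGACGTCA was in 1 BTB promoter and no SCAN promoter (1.77% of all). No word contains another. The median number of CG dinucleotides was 21 in BTB and 18 in SCAN promoters, beside 11 over all promoters. Whether this difference bears on the shares of words rich in C and G was not tested. These matches are letters in a window and were not tied to binding of a factor.

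BTB genes were expressed at higher levels than SCAN genes. The mean over the 4 libraries had a median of 14.0 scaled TPM in BTB genes, with a range of 0.205 to 70.9, and a median of 8.74 in SCAN genes, with a range of 0.284 to 24.7. Of the 55 genes, 47 reached the floor in at least 1 comparison, 32 BTB and 15 SCAN, and 42 reached it in all 4. The 8 genes below it everywhere were ZBTB3, ZBTB32, ZBTB42, ZBTB7C, ZBTB8A, ZSCAN12P1, ZSCAN23 and ZSCAN5B, none of them above 4.68 scaled TPM in any library. They enter no count of ratios at the floor.

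ZBTB16 (PLZF) had the highest mean level of the BTB genes. It stood at 45.1 scaled TPM in knockdown with hemin, 99.8 in knockdown without hemin, 61.7 in control with hemin and 76.9 in control without hemin. ZBTB7B, the ThPOK factor that directs CD4 T cell fate, came next with 51.7, 57.4, 82.1 and 61.0 scaled TPM in the same order of libraries. ZBTB48, which binds telomere repeats, had 54.8 and 50.7 scaled TPM in the knockdown libraries with and without hemin, and 69.9 and 62.6 in the control libraries with and without hemin. Its levels were lower in both knockdown libraries than in both controls. ZBTB17 (MIZ1), a partner of MYC, was at 56.8 and 67.5 scaled TPM in knockdown with and without hemin, and at 48.1 and 41.0 in control with and without hemin.

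The 3 SCAN genes with the highest mean levels were ZKSCAN1, ZSCAN30 and ZSCAN29. ZSCAN30 had 24.9 and 16.7 scaled TPM in knockdown with and without hemin, and 28.7 and 20.7 in control with and without hemin. It was higher in the hemin library of each genotype and lower in knockdown at each state. ZSCAN29 had 18.6 and 14.8 scaled TPM in knockdown with and without hemin, and 21.4 and 23.9 in control with and without hemin, so both knockdown libraries were below both controls.

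**Figure D1:**
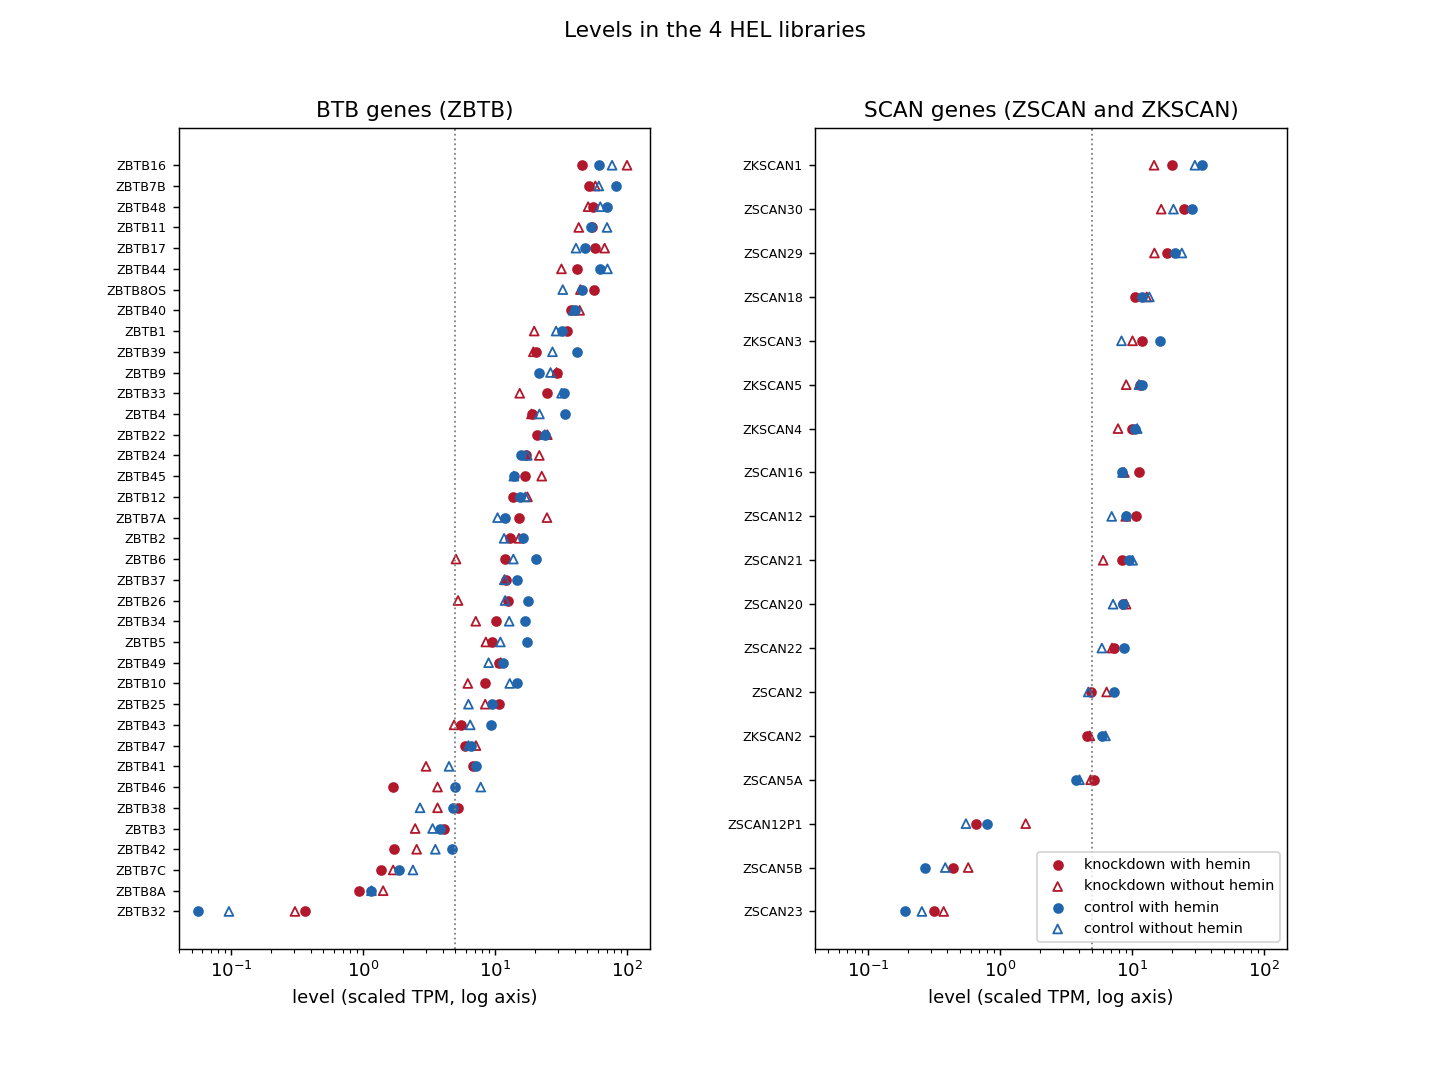
Level of each BTB gene (left) and SCAN gene (right) in the 4 HEL libraries, on a log axis in scaled TPM, ordered by mean level, with 1 point per library and the floor of 5 as a dotted line. BTB genes span from 0.205 to 70.9 in mean level, and 15 of 18 SCAN genes reach the floor in at least 1 library.

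Most BTB and SCAN genes differed by less than 1.5-fold between knockdown and control cells, as did most of all genes. Of 29 BTB genes, 4 were at least 1.5-fold lower in knockdown in both states, beside 6.79% of all genes. With hemin, the median log2 ratio of knockdown over control was -0.20 for 31 BTB genes and -0.16 for 15 SCAN genes, beside 0.01 for all 10893 genes at the floor. Without hemin, it was -0.05 for 30 BTB genes and -0.18 for 14 SCAN genes, beside 0.03 for all 10869. Both medians without hemin changed sign with plain totals, to 0.07 for BTB and 0.046 for SCAN genes. Plain totals scale each library by its sum of reads per unit of length, with no trimmed-mean factor. They move the median of all genes without hemin up by 0.11. The medians with hemin stayed below 0 under that scaling, at -0.10 and -0.07.

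With hemin, 21 of 31 BTB genes and 12 of 15 SCAN genes had a ratio below 0, beside 49.5% of all genes. At least 1.5-fold lower in knockdown were 9 BTB genes and 1 SCAN gene, beside a background of 12.8%, and no gene of either family was at least 1.5-fold higher, beside a background of 15.0%. The 2-fold limit was passed by ZBTB39 alone, lower, beside 4.12% of all genes lower and 6.01% higher. Without hemin, 16 of 30 BTB and 8 of 14 SCAN genes had a ratio below 0, beside 48.2%. Then 8 BTB and 3 SCAN genes were at least 1.5-fold lower (background 17.0%), and 3 BTB genes and no SCAN gene at least 1.5-fold higher (background 17.7%). At 2-fold these were 4 BTB genes and 1 SCAN gene lower, beside 6.42%, and 1 BTB gene higher, beside 6.73%. The share of BTB genes that were at least 1.5-fold lower was 29.0% with hemin and 26.7% without, above the background in both states. The other ZNF genes had shares of 9.81% with hemin and 30.3% without, so without hemin the BTB share was below theirs. Over all genes, the share of 2-fold differences that were higher in knockdown was 59.3% with hemin and 51.2% without, and 69.4% and 65.0% when libraries were scaled to plain totals.

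Lower at least 1.5-fold in both states were 4 of 29 BTB genes (13.8%), namely ZBTB6, ZBTB44, ZBTB10 and ZBTB34, and 1 of 14 SCAN genes (7.14%), ZKSCAN1, beside 6.79% of 10612 genes. None of the 43 genes was at least 1.5-fold higher in both states, beside 9.00%. The sign differed between the states for 9 BTB and 4 SCAN genes, beside 28.8% of all genes, a share close to that background.

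ZBTB6 gave the largest knockdown ratio of both families among the genes at the floor. It stood at 11.8 and 5.05 scaled TPM in knockdown with and without hemin, against 20.3 and 13.7 in control with and without hemin. Both knockdown libraries were below both controls. Its ratio was -0.76 with hemin (95% interval -0.90 to -0.67) and -1.36 without hemin (-1.65 to -1.24).

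ZBTB26 lies next to ZBTB6 on chromosome 9. Its levels were 12.5 and 5.23 scaled TPM in knockdown with and without hemin, against 17.6 and 11.9 in control with and without hemin. The library without hemin was low in knockdown, while the knockdown library with hemin lay between the controls. Its ratio was -0.48 with hemin (-0.67 to -0.32) and -1.11 without hemin (-1.50 to -0.88). ZBTB6 and ZBTB26 were thus neighbours with knockdown ratios of the same sign in both states.

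ZBTB44, whose promoter with its run of GC boxes is shown above, is expressed at a higher level than ZBTB6, ZBTB10 and ZBTB34. It had 41.7 and 31.8 scaled TPM in knockdown with and without hemin, against 62.8 and 71.0 in control with and without hemin. Again both knockdown libraries were below both controls. The log2 ratio was -0.59 with hemin (-0.65 to -0.53) and -1.15 without hemin (-1.24 to -1.08).

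ZBTB10, a repressor of SP transcription factor genes, had 8.33 and 6.21 scaled TPM in knockdown with and without hemin, against 14.5 and 12.9 in control with and without hemin. Its log2 ratio was -0.77 with hemin (-0.91 to -0.69) and -0.999 without hemin (-1.22 to -0.90), just short of 2-fold. ZBTB34 had 10.2 and 7.13 scaled TPM in knockdown with and without hemin, against 16.7 and 12.8 in control with and without hemin, with log2 ratios of -0.69 and -0.80. In both genes the knockdown libraries lay below the controls.

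Kaiso, the product of ZBTB33, binds methylated CG dinucleotides through its zinc fingers, as do the products of ZBTB4 and ZBTB38. ZBTB33 had 24.7 and 15.3 scaled TPM in knockdown with and without hemin, against 33.3 and 31.9 in control with and without hemin. The log2 ratio was -0.43 with hemin (-0.51 to -0.36) and -1.03 without hemin (-1.16 to -0.95). ZBTB4 had 19.1 and 18.9 scaled TPM in knockdown with and without hemin, against 33.8 and 21.7 in control with and without hemin. Both were lower in knockdown, ZBTB33 by more without hemin and ZBTB4 by more with hemin, where its log2 ratio was -0.81 (-0.90 to -0.75) against -0.19 (-0.30 to -0.10) without hemin. ZBTB38 was low throughout, at 5.24 and 3.66 scaled TPM in knockdown with and without hemin and 4.82 and 2.70 in control with and without hemin, and its ratio with hemin was 0.11 (-0.02 to 0.26). The 3 genes thus did not share 1 pattern.

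ZBTB39 was the BTB gene that differed by 2-fold with hemin. It had 20.5 and 19.5 scaled TPM in knockdown with and without hemin, against 41.7 and 27.2 in control with and without hemin. The control library with hemin was high and the 2 knockdown libraries were alike. Its ratio was -1.01 with hemin (-1.09 to -0.96) and -0.47 without hemin (-0.57 to -0.39). With hemin that ratio was -0.91 with plain totals, -0.96 with a pseudocount of 2 and -0.95 with the length trend removed, short of 2-fold. ZBTB7B, with the levels given above, had ratios of -0.66 with hemin (-0.73 to -0.61) and -0.09 without hemin (-0.16 to -0.01).

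ZBTB46, a marker of classical dendritic cells, was near the floor. It had 1.68 and 3.66 scaled TPM in knockdown with and without hemin, against 4.96 and 7.77 in control with and without hemin. Both knockdown libraries were below both controls, and the gene was also lower with hemin in each genotype. Without hemin the log2 ratio was -0.99 (-1.33 to -0.85). With hemin neither library reached the floor, so the gene enters counts through the control library without hemin alone.

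ZBTB7A, the fetal globin repressor also called LRF, was the BTB gene that was 2-fold higher in knockdown. It had 15.1 and 24.7 scaled TPM in knockdown with and without hemin, against 11.9 and 10.4 in control with and without hemin. Both knockdown libraries were above both controls, with the highest level in the knockdown library without hemin. The log2 ratio was 0.33 with hemin (0.23 to 0.47) and 1.21 without hemin (1.11 to 1.38). ZBTB17 also stood higher in both knockdown libraries, with ratios of 0.24 with hemin (0.16 to 0.32) and 0.71 without hemin (0.63 to 0.81).

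Among the SCAN genes ZKSCAN1, whose gene is also the source of an abundant circular RNA, differed the most. It had 20.2 and 14.7 scaled TPM in knockdown with and without hemin, against 33.9 and 30.1 in control with and without hemin. Both knockdown libraries were below both controls. The log2 ratio was -0.73 with hemin (-0.82 to -0.67) and -1.003 without hemin (-1.14 to -0.92). Without hemin that ratio was -0.89 with plain totals and -0.94 with a pseudocount of 2, short of 2-fold. The other 4 ZKSCAN genes had ratios between -0.43 and -0.06 with hemin, and between -0.46 and 0.26 without hemin. Of the 5 ZKSCAN genes, which carry the KRAB domain, all 5 were below 0 with hemin and 4 without, beside 49.5% and 48.2% of all genes, and their median was -0.35 with hemin and -0.36 without. With hemin, 3 of the 5 had intervals wholly below 0, beside 4412 of 10893 genes. Also with hemin, 3 were below 0 when libraries were scaled to plain totals, where no share over all genes was taken. The ZSCAN genes were below 0 in 7 of 10 with hemin and 4 of 9 without, with medians of -0.16 and 0.04.

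ZSCAN21 and ZSCAN29 were the other SCAN genes at least 1.5-fold lower without hemin. ZSCAN21 had 8.45 and 6.07 scaled TPM in knockdown with and without hemin, against 9.45 and 10.1 in control with and without hemin, and its ratio was -0.15 with hemin (-0.38 to 0.06) and -0.69 without hemin (-1.03 to -0.45). ZSCAN29 had ratios of -0.19 with hemin (-0.29 to -0.11) and -0.67 without hemin (-0.80 to -0.58). In both genes the difference was larger without hemin. The highest SCAN ratios were 0.40 for ZSCAN16 with hemin (0.16 to 0.69) and 0.42 for ZSCAN2 without hemin (-0.03 to 0.95).

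**Figure D2:**
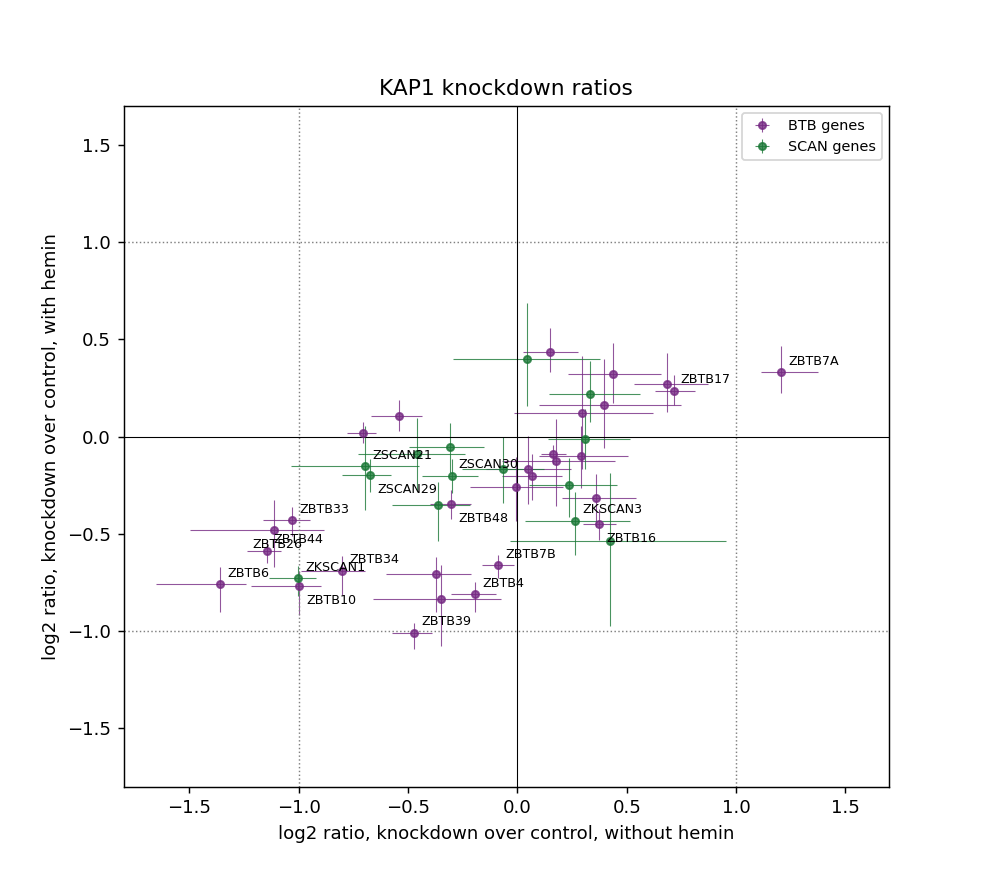
Log2 ratio of knockdown over control with hemin (vertical) against the same without hemin (horizontal) for BTB genes (purple) and SCAN genes (green) at the floor in both, with 95% counting intervals as bars and the 2-fold limits dotted. ZBTB6, ZBTB44, ZBTB10, ZBTB34 and ZKSCAN1 sit low on both axes, and ZBTB7A stands alone at 1.21 without hemin and 0.33 with hemin.

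A fit of all 4 libraries gave the genes a common test. The limma model had a knockdown term and a hemin term, was fitted to 11150 genes and took an adjusted p under 0.05 (Benjamini-Hochberg over all genes) as a call. Its 1 residual degree of freedom is the interaction of knockdown and hemin, and its spread is borrowed across genes, so its p-values do not measure the spread between cultures. In the knockdown term, 8 of 32 BTB genes fell (25%), beside a background of 10.2%, and 1 rose, ZBTB7A, beside 12.1%. Of 15 SCAN genes 1 fell, ZKSCAN1 (6.67%), and none rose. ZKSCAN1 was also the 1 SCAN gene with an unadjusted limma p under 0.05, beside 3702 of 11150 genes. Over all genes 1354 rose and 1133 fell, and 1607 and 744 when libraries were scaled to plain totals. The BTB genes that fell were ZBTB6, ZBTB44, ZBTB10, ZBTB39, ZBTB33, ZBTB46, ZBTB26 and ZBTB34. Of these, ZBTB46 reached the floor in the control library without hemin alone, so the floor favoured its fall. Among the other zinc finger genes named ZNF with a number, 30 of 326 fell (9.20%) and 5 rose (1.53%).

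The largest of these effects per standard error were those of ZBTB6, at -1.06 ± 0.28 (SE) with a limma adjusted p of 0.00137, ZBTB44, at -0.87 ± 0.23 with a limma adjusted p of 0.00222, and ZKSCAN1, at -0.87 ± 0.24 with a limma adjusted p of 0.0035. ZBTB10, ZBTB39, ZBTB33 and ZBTB46 had limma adjusted p between 0.0134 and 0.018. ZBTB7A rose by 0.77 ± 0.26 with a limma adjusted p of 0.0189. ZBTB26 and ZBTB34 passed least clearly, with limma adjusted p of 0.0243 and 0.0363. Without the floor the call was lost for ZBTB7A, ZBTB26, ZBTB33, ZBTB34 and ZBTB39, with limma adjusted p between 0.0531 and 0.0905. Plain library totals lost ZBTB26, ZBTB33, ZBTB34 and ZBTB39, with limma adjusted p between 0.0604 and 0.0885, and a floor of 20 lost ZBTB7A, with a limma adjusted p of 0.0851. ZBTB6, ZBTB44, ZBTB10, ZBTB46 and ZKSCAN1 were called in every fit with pooled spread that included them. ZBTB46, whose fall the floor favoured, was also called with no floor, while the floor of 20 left it out.

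Transcript length went along with the knockdown ratio. Lengths were read, relative to the median gene, from the value that 1 read was worth in each row, and are too short in the minority of rows whose 4 read numbers share a common factor. This may be so for ZBTB24, ZBTB5 and ZSCAN2, whose relative lengths came out at 0.24, 0.59 and 0.36. The median was 1.29 for 32 BTB and 1.35 for 15 SCAN genes, so both families were longer than the median gene. The 8 BTB genes called lower had a median of 1.90, against 1.06 in the 24 others, beside 1.003 in all 1130 genes called lower that have a length. The rank correlation of ratio on length across genes, which share libraries and are not independent, was -0.28 in BTB, -0.34 in SCAN and -0.11 in all genes with hemin. Without hemin it was -0.45 in BTB, -0.35 in SCAN and -0.22 in all genes. Leaving out ZBTB24, ZBTB5 and ZSCAN2, an alternative chosen after seeing the data, the medians were 1.43 for BTB, 1.46 for SCAN and 1.097 for BTB genes not called lower. The rank correlations were then -0.33 in BTB and -0.60 in SCAN genes with hemin, and -0.45 in BTB and -0.18 in SCAN genes without hemin. Leaving out ZSCAN2 thus made the SCAN correlation stronger with hemin and weaker without.

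With the length trend removed from each library before the fit, 7 BTB genes fell and 1 rose, and 1 SCAN gene fell. ZBTB34 was the gene lost, with a limma adjusted p of 0.0891 there. In a separate step the length trend was removed from the ratios themselves. The ratio without hemin was then -1.24 for ZBTB6, -0.99 for ZBTB44, -0.85 for ZBTB33, -0.81 for ZKSCAN1 and -0.80 for ZBTB10. That of ZBTB7A was 1.35. Others moved closer to 0: the ratio of ZBTB34 became -0.59 after removal of the trend, that of ZBTB39 -0.27, and that of ZBTB4 0.00045, beside -0.19 with no removal. The part of RNA quality in these ratios was not tested.

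**Figure D3:**
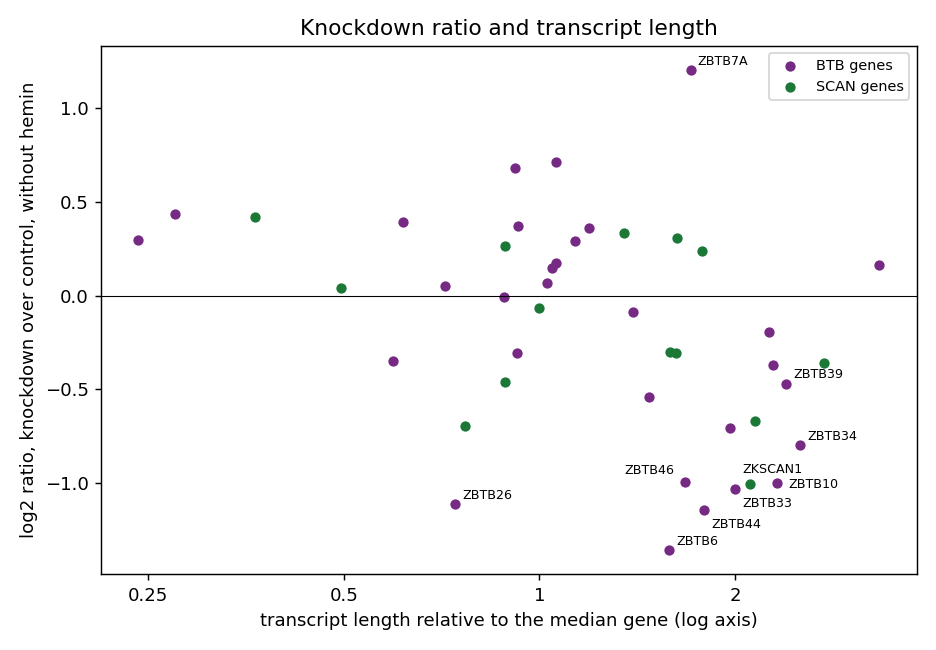
Log2 ratio of knockdown over control without hemin against transcript length relative to the median gene, on a log axis, for each BTB gene (purple) and SCAN gene (green) at the floor. Of the labelled genes lower in knockdown, ZBTB26 is the one drawn left of the median gene's length, and ZBTB7A, at 1.21, lies right of it.

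Hemin ratios of these genes reached 2-fold in knockdown cells for 4 BTB genes and in control cells for none, while ZKSCAN3, ZBTB4, ZBTB39 and ZBTB5 had larger ratios in control than in knockdown cells. In knockdown, the median log2 ratio of hemin over no hemin was 0.07 for 31 BTB and 0.28 for 14 SCAN genes, beside 0.00 for all 10817 genes. In control, it was 0.18 for 31 BTB and 0.12 for 14 SCAN genes, beside -0.01 for all 10790 genes. A ratio below 0 was found in knockdown for 12 of 31 BTB and 3 of 14 SCAN genes, beside 49.8%, and in control for 7 of 31 BTB and 6 of 14 SCAN genes, beside 50.6%.

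In knockdown, ZBTB26, ZBTB6 and ZBTB41 were at least 2-fold higher with hemin, beside 2.26% of all genes, and ZBTB16 at least 2-fold lower, beside 1.71%. No SCAN gene reached 1.5-fold there in either direction, beside 12.1% higher and 10.7% lower, while 5 BTB genes were higher and 2 lower at that limit. In control, no gene of either family reached 2-fold, beside 2.59% in each direction. At 1.5-fold, 4 BTB and 2 SCAN genes were higher in control, beside 9.23%, and 1 BTB gene was lower, beside 8.22%. ZBTB41 was the gene at least 1.5-fold higher in both genotypes, 1 of 30 BTB genes beside 2.77%, and none of 13 SCAN genes was. No gene of either family was lower by that much in both, beside 2.74%, and the sign differed between genotypes in 12 BTB and 6 SCAN genes, beside 36.8%.

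For ZBTB6 the hemin ratio was 1.15 in knockdown (1.02 to 1.43) and 0.55 in control (0.44 to 0.68). For its neighbour ZBTB26 it was 1.18 in knockdown (0.97 to 1.56) and 0.55 in control (0.38 to 0.76). Both were thus higher with hemin in each genotype, and both had their lowest level in knockdown without hemin. That library enters every gene's knockdown ratio without hemin and its hemin ratio in knockdown, so the ratios are not independent. ZBTB41 had 6.79 scaled TPM with hemin against 2.99 without in knockdown, and 7.14 with hemin against 4.47 without in control. It reached the floor in the hemin libraries alone, so the floor favoured a rise. Its ratio was 1.06 in knockdown (1.00 to 1.37) and 0.62 in control (0.53 to 0.82).

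ZBTB16 was the BTB gene that was 2-fold lower with hemin in knockdown. With the levels given above, its hemin ratio was -1.14 in knockdown (-1.23 to -1.07) and -0.32 in control (-0.39 to -0.24). The highest of its 4 levels was that of knockdown without hemin and the lowest that of knockdown with hemin. ZBTB7A was also lower with hemin in knockdown, with a ratio of -0.69 (-0.82 to -0.60), and its ratio in control was 0.18 (0.05 to 0.33).

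ZKSCAN3, a repressor of autophagy and lysosome genes, had the largest hemin ratio of the SCAN genes. It had 12.0 scaled TPM with hemin against 10.1 without in knockdown, and 16.4 with hemin against 8.35 without in control. The ratio was 0.24 in knockdown (0.04 to 0.46) and 0.93 in control (0.78 to 1.17). ZSCAN30 had hemin ratios of 0.56 in knockdown (0.46 to 0.70) and 0.46 in control (0.37 to 0.57).

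In the hemin term of the limma fit, 2 of 32 BTB genes rose, ZBTB26 by 0.86 ± 0.28 (SE) and ZBTB6 by 0.85 ± 0.28, with limma adjusted p of 0.0392 and 0.0408, beside a background of 2.99%. ZBTB16 fell by 0.73 ± 0.23 with a limma adjusted p of 0.036, beside 2.90%. None of 15 SCAN genes was called by limma, and 2 of them had an unadjusted limma p under 0.05, beside 2117 of 11150 genes. These BTB calls lie close to the threshold. Apart from the fit above, ZBTB16 was called in 5 of 9 other pooled fits that tested it, ZBTB26 in 3 of 8 and ZBTB6 in 3 of 9.

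**Figure D4:**
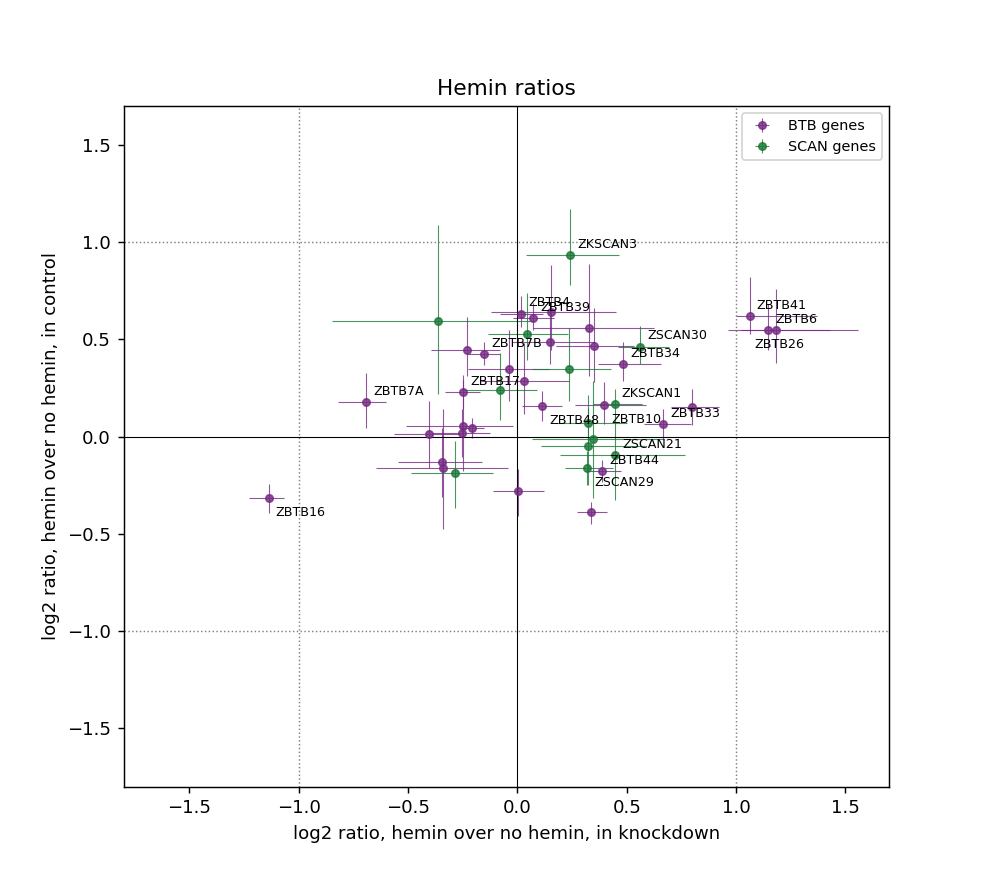
Log2 ratio of hemin over no hemin in control (vertical) against the same in knockdown (horizontal) for BTB genes (purple) and SCAN genes (green) at the floor in both, with 95% counting intervals as bars and the 2-fold limits dotted. ZBTB6, ZBTB26 and ZBTB41 lie beyond the limit on the right and ZBTB16 beyond it on the left, while no gene passes it on the vertical axis.

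Set beside each other, the families were compared by the median and the spread of their ratios. The BTB median minus the SCAN median was -0.04 for knockdown over control with hemin and 0.14 without, and for hemin over no hemin -0.21 in knockdown and 0.06 in control. The SD of the ratios across BTB genes was 0.41 and 0.64 for knockdown with and without hemin and 0.52 and 0.34 for hemin in knockdown and control. In SCAN genes the SD was 0.31 and 0.45 for knockdown with and without hemin, and 0.28 and 0.34 for hemin in knockdown and control. The SDs of the families were nearly equal for hemin in control and higher in BTB genes in the other 3 comparisons. All genes had SDs of 0.64, 0.71, 0.52 and 0.50 in the same order. Neither the medians nor the SDs were tested against each other, and SCAN genes are fewer and lower in level, so a smaller share of calls among them does not show that they respond less.

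BTB and SCAN genes with other symbols and the partners of the BTB domain were taken from lists. With hemin the median ratio of knockdown over control was -0.24 for 6 other BTB genes, -0.21 for 20 other SCAN genes, -0.05 for 11 BTB partners and -0.14 for 316 other ZNF genes. Without hemin it was -0.13 for 7 other BTB genes, 0.12 for 19 other SCAN genes, 0.21 for 11 partners and -0.31 for 304 other ZNF genes. The median below 0 with hemin was therefore seen in every zinc finger list here.

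In the knockdown term of the limma fit, SCAND1, which encodes a SCAN domain with no zinc finger, rose among 20 other SCAN genes (5%, beside 12.1% of all genes), and ZNF193 and ZNF434 fell (10%, beside 10.2%), shares no higher than the background. SCAND1 had 190.0 and 280.1 scaled TPM in knockdown with and without hemin, against 122 and 139 in control with and without hemin, with log2 ratios of 0.63 (0.56 to 0.71) and 1.01 (0.93 to 1.09). Among 11 BTB partners RBX1, the RING subunit of CUL3 ligases, rose (9.09%, beside 12.1%), with ratios of 0.63 with hemin and 0.59 without. HIC1, a BTB tumour suppressor, was the 1 of 7 other BTB genes called. It fell in the hemin term (14.3%, beside 2.90% of all genes), with a limma adjusted p of 0.0408. It had 0.960 scaled TPM with hemin against 5.15 without in knockdown, and 2.54 with hemin against 4.72 without in control. HIC1 reached the floor in knockdown without hemin alone, so the floor favoured its fall.

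**Figure D5:**
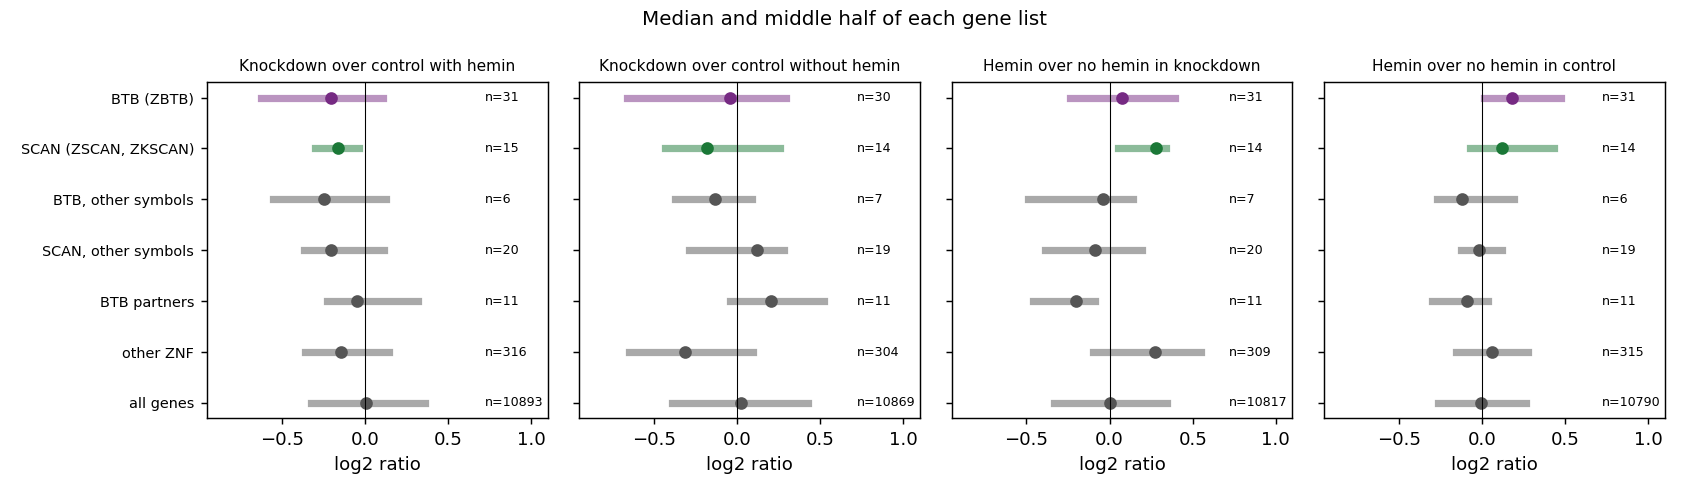
Median log2 ratio (point) and interquartile range (bar) in each of the 4 comparisons for BTB genes (purple), SCAN genes (green), the other lists and all genes (grey), with the number of genes at the floor. BTB and SCAN medians lie at -0.20 and -0.16 for knockdown over control with hemin, beside 0.01 for all genes.

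Several of these genes are neighbours. Within 200 kb of each other lie 13 pairs made of 22 genes, by RefSeq order on the human genome. The pair ZBTB6 and ZBTB26 had ratios of the same sign in all 4 comparisons, described above. Next to each other on chromosome 9, ZBTB43 and ZBTB34 had knockdown ratios of -0.71 and -0.69 with hemin and -0.37 and -0.80 without. ZKSCAN1 and ZSCAN21 on chromosome 7 had -0.73 and -0.15 with hemin and -1.003 and -0.69 without. On chromosome 14, ZBTB25 and ZBTB1 had 0.16 and 0.11 with hemin, and opposite signs without hemin, at 0.40 and -0.54. Opposite signs with hemin were seen in ZSCAN22 and ZBTB45 on chromosome 19, at -0.25 and 0.27. So it was for ZBTB22 and ZBTB9 on chromosome 6, at -0.20 and 0.44. Without hemin each of these pairs had ratios of the same sign. The share of neighbours with the same sign was not compared with a background.

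On chromosome 6, 6 SCAN genes lie in 1 run, ZSCAN12P1, ZSCAN16, ZKSCAN4, ZKSCAN3, ZSCAN12 and ZSCAN23. At the floor were 4 of them, and their knockdown ratios were 0.40 for ZSCAN16, -0.09 for ZKSCAN4, -0.43 for ZKSCAN3 and 0.22 for ZSCAN12 with hemin. Without hemin they were 0.04, -0.46, 0.26 and 0.33 for the same genes, so members of the run differed in sign in both states.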

How the data were processed

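RNA-seq of 4 HEL libraries, 1 per group, was analysed. The authors deposited RPKM for each RefSeq transcript, per the file headers. The submitters' processing notes name Bowtie and hg19, and no other step is given. Each column of these values was first divided by a factor of its own. The factors were 0.984 and 0.908 for knockdown with and without hemin, and 0.978 and 1.0 for control with and without hemin. The values of a row were then whole multiples of 1 step. Reads were thus recovered for 24533 of 24538 rows within 0.0002 reads plus a relative 4e-09. The remaining 5 rows hold whole numbers, TRIM28 among them. Of random sets of 4 whole numbers 7.61% share a factor, and such reads come out divided by it, which widens their intervals.

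The transcript with the highest mean was kept per gene. Values were scaled by read totals times trimmed-mean factors (trims of 0.3 and 0.05; 1.03, 1.01, 0.993 and 0.964 for knockdown with and without hemin and control with and without hemin) to a mean library sum of 1000000. Ratios were log2(value + 0.5), with a floor of 5 and limits of 2-fold and 1.5-fold. An interval is on the reads and so need not be centred on the ratio. The fit was limma 3.58.1 (R 4.3.3) with trend on the 4 libraries. It was tried on simulated data with a fixed spread, no hemin effect and no interaction. As the residual of the real fit is the interaction, that trial cannot vouch for the calls. Other steps used Python 3.11.15, numpy 2.4.6, scipy 1.17.1 and statsmodels 0.14.6.

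Genes are named by rule: the 3 highest in level per family, those at least 1.5-fold apart in both states or genotypes, at least 2-fold apart in 1 comparison, called in the fit, or of known role, with the largest ratios of other lists. Genes outside the rule (such as ZBTB43, ZBTB25 and ZBTB1) were named after their values were seen. Members and lists were chosen with earlier results of these data known. Alternatives were scaling, pseudocount, floor, transcript choice, length and model; 3 of them, without ZBTB8OS and ZSCAN12P1, the fit with the length trend removed, and lengths without ZBTB24, ZBTB5 and ZSCAN2, were chosen after seeing the data. The result of 1 gene in the list of BTB partners is not reported here.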

Additional observations from a re-analysis of the deposited data

Results flagged for a closer look

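In 6 of the BTB and SCAN genes the knockdown ratios had opposite signs in the 2 states, each with a counting interval that leaves out 0. For ZBTB16 the log2 ratio of knockdown over control was -0.45 with hemin and 0.37 without, a difference of -0.82 (95% counting interval -0.93 to -0.71). For ZKSCAN3 it was -0.43 with hemin and 0.26 without, a difference of -0.69 (-0.98 to -0.41). ZBTB2 had -0.32 with hemin and 0.36 without, a difference of -0.68 (-0.89 to -0.46), and ZSCAN22 had -0.25 with hemin and 0.24 without, a difference of -0.48 (-0.73 to -0.24). The difference for ZBTB40 was -0.25 (-0.33 to -0.17), from ratios of -0.09 with hemin and 0.16 without. Plain totals move the median of all genes with hemin up by 0.098, more than the size of the ZBTB40 ratio there. ZBTB1 ran the other way, at 0.11 with hemin and -0.54 without, a difference of 0.65 (0.51 to 0.79). With 1 library per group these differences were not tested against the spread between cultures. Over all genes 28.8% had opposite signs in the 2 states, whatever their intervals. The share that also meets the interval condition was not computed over all genes, so the 6 genes have no like background.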

How the results depend on the processing

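Family medians and their differences carry no call, and some changed sign, among them both medians for knockdown over control without hemin. Of the family medians 83 stayed within their spread and 5 did not, of the differences between families 41 and 3, of the gene counts 131 and 13, of the named ratios 641 and 37, and of the counts in the limma fit 60 and 20. For knockdown over control without hemin, the SCAN median was 0.046 with plain totals, 0.13 with no floor and -0.67 with a floor of 20, and the BTB median minus the SCAN median was -0.21 with no floor and 0.74 with a floor of 20. The floor of 20, which leaves 3 SCAN genes in the fit, also gave a BTB median of -0.35 for knockdown with hemin, and for hemin in knockdown a SCAN median of 0.50 and a difference of -0.58. In the knockdown term, BTB genes that fell numbered 4 with a floor of 20, with no floor and with plain totals, and BTB genes that rose numbered 0 with a floor of 20 and with no floor. In the hemin term, BTB genes that rose numbered 0 with a floor of 20, no trend, no floor, plain totals, a pseudocount of 2 and the transcript with the most reads, and BTB genes that fell numbered 0 with no trend, no floor, plain totals and the transcript with the most reads. An ordinary linear model without pooled spread, with 1 residual degree of freedom per gene, gave 0 calls for both families and both terms. It also gave 0 calls over all 11150 genes. At an unadjusted p under 0.05 from that model, knockdown had 2 BTB genes and 1 SCAN gene, beside 1124 of all genes. Hemin had 0 BTB genes and 1 SCAN gene there, beside 805 of all genes. The cause of the other changes was not tested. No paired analysis was possible because each group had 1 library. Depth limits low genes most: the median width of a counting interval for knockdown over control was 0.28 with hemin and 0.35 without.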

Other observations

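Transcripts of 1 gene mostly gave the same ratio. Of the 55 genes 14 had several transcripts in the table, and the median of their widest gap in log2 ratio was 0.037. ZBTB24, which is mutated in a syndrome of immunodeficiency and centromere instability, was the 1 gene with a gap over 0.3. For knockdown over control without hemin its transcript NM_001164313 had a log2 ratio of 0.30 and NM_014797 one of -0.32, and for hemin in knockdown they had -0.34 and 0.27. Transcripts of 1 gene share reads, and the sources used here do not say how the authors divided them.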
